A study of Mus musculus with 6 samples.

Results

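ATP-binding cassette (ABC) transporters are membrane proteins that use ATP hydrolysis to move substrates across lipid bilayers. The mouse genes are named by subfamily, A to G, and were taken here as every gene whose symbol is Abc, a subfamily letter and a number. The gene table held 50 such genes and all had a probe on the array. A gene was kept if any of its probes passed the scanner's detection limit (signal well above background) on 3 or more of the 6 arrays, and the brightest such probe stood for it, which left 32 ABC genes among 13492 genes tested. The rule uses detection and brightness over all arrays and not the difference between the groups.

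RNA came from isolated intestinal crypts, the epithelial pockets that hold the stem cells of the gut lining. The 3 knockout samples were Villin-Cre; Arid1a f/f, in which Cre recombinase is driven by the Villin promoter, which is active in intestinal epithelial cells. The 3 control samples were Arid1a f/f without Cre, so all 6 samples carry the floxed Arid1a alleles, and the strain of all was given as mixed, with no age stated. Arid1a is a subunit of BAF, a complex that slides and evicts nucleosomes. Each sample was hybridised to one Agilent one-colour array. For knockout 2 and control 3 the labels contradict each other, the title and description naming one genotype and the remaining fields the other, and the grouping used here is that of the titles. Whether each sample is its own animal is not stated, and p-values therefore reflect the spread among these samples, which may be technical.

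ABC proteins of the gut fall into a few working groups. The ABCA and ABCG proteins mostly move cholesterol and phospholipid. The ABCB and ABCC proteins include the multidrug efflux pumps of the enterocyte membranes and several mitochondrial carriers. The ABCD proteins work in the membranes of peroxisomes and lysosomes. The ABCE and ABCF proteins have ATP-binding cassettes but no membrane domain and act on ribosomes. P-glycoprotein, encoded in mice by Abcb1a and Abcb1b, and Abcg2 return drugs and dietary toxins to the gut lumen, and the Abcg5 and Abcg8 proteins pair to return plant sterols and cholesterol.

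Levels below are log2 signals relative to the 75th percentile of the array, and fold changes are log2 differences of the group means (knockout minus control), each ± its SE, for 3 arrays a group. The test was limma, its p-values were adjusted by Benjamini-Hochberg over all 13492 genes, and a gene was called at an adjusted p under 0.05. Arid1a itself had levels of 2.20, 2.07 and 2.51 on knockout arrays 1 to 3, against 3.71, 3.47 and 4.01 on control arrays 1 to 3, with no overlap. Knockout 2 had the lowest of these levels and control 3 the highest, and these are the arrays whose labels contradict each other. Where the Arid1a probe lies relative to the deleted part of the gene is not stated. Epithelial markers (Epcam, Cdh1, keratins, Vil1, Cdx1 and Cdx2) were measured for 8 of 8 genes. Their median log2 fold change was 0.23, with 6 positive and 2 negative. Cdx1 was called lower (-1.14, adjusted p = 0.0376), and Cdx2 was not called (-0.55, adjusted p = 0.0625). Knockouts 1 and 2 and controls 1 and 2 lay on slide 1, and knockout 3 and control 3 on slide 2, scanned separately. The mean level of Y-linked genes was above that of Xist, a gene marking female samples, on knockouts 1 and 3 and on control 1 alone. Between 44.8% and 54.7% of probes were well above background on the knockout arrays, against 41.7% to 49.4% on the control arrays, and 0 probes were saturated.

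Promoter sequences at a pair of loci are shown because the genes on them are neighbours in the genome and their values are compared below. The first set is the 250 bases before the start of Abcb1a, Abcb1b and Abcb4, which lie one after another on mouse chromosome 5. All are from RefSeq, build GRCm38.p6, plus strand, at chr5:8566841-8567090, chr5:8797897-8798146 and chr5:8893471-8893720. Capitals mark matches to motifs searched on both strands.
Abcb1a: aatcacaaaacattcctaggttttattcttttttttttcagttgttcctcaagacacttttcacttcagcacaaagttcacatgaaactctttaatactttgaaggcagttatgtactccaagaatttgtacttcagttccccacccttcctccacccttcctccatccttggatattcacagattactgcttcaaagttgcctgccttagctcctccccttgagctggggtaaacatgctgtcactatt
Abcb1b: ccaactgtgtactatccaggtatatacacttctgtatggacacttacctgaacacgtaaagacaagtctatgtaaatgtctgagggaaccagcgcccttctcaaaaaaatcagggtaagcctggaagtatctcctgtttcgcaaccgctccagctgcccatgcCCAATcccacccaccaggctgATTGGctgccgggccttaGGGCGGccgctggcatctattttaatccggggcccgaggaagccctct
Abcb4: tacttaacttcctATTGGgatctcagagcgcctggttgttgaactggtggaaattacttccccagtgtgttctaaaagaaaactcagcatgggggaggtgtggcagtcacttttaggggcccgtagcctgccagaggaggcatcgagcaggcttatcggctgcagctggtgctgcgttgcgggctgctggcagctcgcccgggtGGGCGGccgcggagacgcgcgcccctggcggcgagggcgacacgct
Matches to 4 motifs were searched. The CCAAT box was spelled CCAAT. The GC box was spelled GGGCGG and the box bound by the TATA-binding protein TATAAA. The motif of GATA factors was spelled AGATAA. No match overlapped another. The Abcb1b window held CCAAT once on each strand and GGGCGG once, the Abcb4 window held CCAAT on the opposite strand and GGGCGG once, and the Abcb1a window held none of the 4. Among 32851 RefSeq promoter windows of 250 bases, 33.8% held CCAAT and 32.7% held GGGCGG, so these letters are common.

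Abcg5 and Abcg8 lie head to head on chromosome 17, and the 109 bases between their starts, chr17:84683012-84683120 (RefSeq, GRCm38.p6), are shown on the plus strand, from the Abcg5 start to an Abcg8 start. Capitals mark AGATAA and TATAAA, all matching on the opposite strand.
Abcg5-Abcg8: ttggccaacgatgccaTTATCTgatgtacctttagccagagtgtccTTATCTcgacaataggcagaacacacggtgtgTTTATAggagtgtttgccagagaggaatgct
The stretch held AGATAA at 2 places and TATAAA at 1. In the 109 bases before the start in all 32851 windows, 3.98% held AGATAA and 5.9% held TATAAA. A match describes letters and not a bound site. Of the 32 measured ABC genes, 23 had a promoter entry.

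Across the family, 2 of the 32 genes (6.25%) rose in knockout crypts and 0 fell. The genes that rose were Abcc5 and Abcc8. Of all genes tested, 14.9% were called, 7.28% higher and 7.63% lower, so the share of ABC genes called higher was near the background. At an unadjusted p under 0.05, 6 of the 32 ABC genes were higher and 2 lower, against 2193 and 2425 of the 13492 genes tested. Of the 32 fold changes 19 were positive and 13 negative. The median log2 fold change was 0.04 for the family and -0.01 for all genes tested, and the median size regardless of sign was 0.43 and 0.39. The ABC genes varied among samples of one genotype with a median SD of 0.37 on the knockout arrays and 0.22 on the control arrays, against 0.30 and 0.20 for all genes.

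In 10 of the 32 genes (31.2%) the 3 knockout values and the 3 control values did not overlap. In 8 of these (25%) the knockout values were the higher ones, with a background of 19% of all genes, among them Abca2, Abca7, Abcb8, Abcc5, Abcc8, Abcf3 and Abcg2. In the other 2 (6.25%), Abcb6 and Abcg8, they were the lower ones, with a background of 20.7%.

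**Figure D1:**
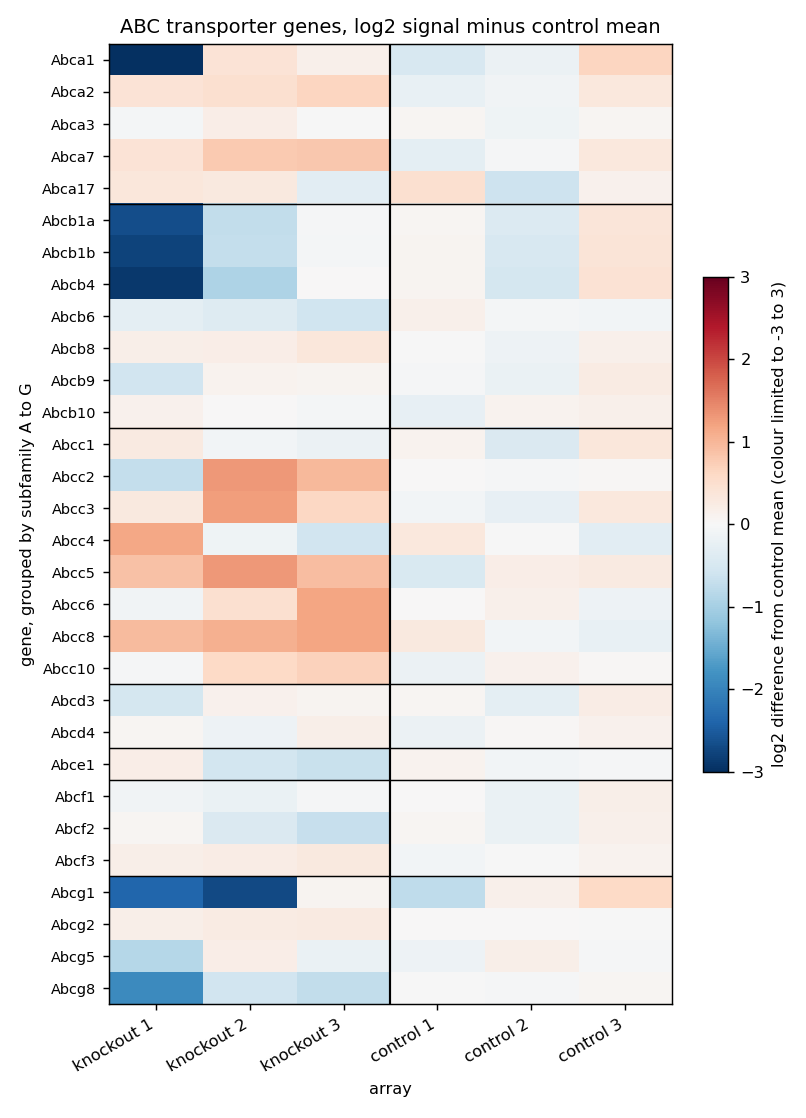
Each line is one measured ABC gene, grouped by subfamily, and each column one array, with knockout arrays at the left. Colour gives the log2 signal minus the control mean of that gene, limited to -3 to 3. Abcb1a, Abcb1b, Abcb4, Abca1, Abcg1 and Abcg8 are at least 1 below the control mean on knockout 1, and Abcc5 lies above it on all 3 knockout arrays.

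The knockout arrays were not alike for this family. On knockout 1, 9 of 32 ABC genes (28.1%) had their lowest value of the 6 arrays, against 15.5% of all genes, and on control 1 it was 8 of 32 (25%), against 16.2% of all genes. On knockout 1, 6 ABC genes (18.8%) lay at least 1 log2 unit below their control mean, against a background of 7.14% of all genes. They were Abca1, Abcb1a, Abcb1b, Abcb4, Abcg1 and Abcg8. Abca1 and Abcg1 were not well above background on that array, and Abcb1a, Abcb1b and Abcb4 are neighbours in the genome. On knockout 2 the only ABC gene that low was Abcg1, and on knockout 3 there was none, against 10.6% and 13% of all genes. Absorptive enterocyte markers, measured for 10 of 10 genes, averaged -1.10, -0.80 and 0.12 log2 units from the control mean on knockouts 1 to 3, against -0.09, -0.07 and 0.16 on controls 1 to 3. Within that list, Lct and Mep1a fell, while 7 of the 10 had positive fold changes and the median was 0.19. Lct was at 2.26, 1.38 and 5.64 on knockouts 1 to 3, against a control mean of 8.19. Mep1a was at 1.2, 1.48 and 3.01 on the same arrays, against 4.16. Alpi was at 7.23 on knockout 1, against a control mean of 6.99, and Slc5a1 at 5.1, against 5.01. The part of enterocyte content in the pattern of knockout 1 was not tested, and fewer cells of a type cannot be told apart from less RNA per cell.

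Without knockout 1, 7 ABC genes were higher and 2 lower, with a background of 12.7% of all genes higher and 17.2% lower. The higher genes then included Abca7 (log2 fold change 0.79), Abcc2 (1.13), Abcc3 (0.94), Abcc5 (1.11), Abcc8 (1.12) and Abcc10 (0.65). The lower ones were Abce1 at -0.61 and Abcg8 at -0.65.

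The ABCC subfamily holds organic anion exporters known as multidrug resistance proteins, together with regulators of potassium channels. Of 10 ABCC genes 8 were measured, and 2 of them (25%) rose, against 7.28% of all genes. All 8 had a positive fold change, against 49.1% of all genes, with a median of 0.52 and a range of 0.01 to 1.06, but with each array scaled to its median 6 of 8 were positive with a median of 0.27, and with quantile normalization 6 of 8 with a median of 0.50. Scaling to the array median moved the median of all genes to -0.26, and the ABCC median was above that of all genes there too. The ABCC median was 0.89 with 6 of 8 positive when knockout 1 was left out, 0.81 with 6 of 8 positive under array weights, 0.33 on slide 1 alone and 0.10 with arrays grouped by source name. Neither Abcc5 nor Abcc8 stayed called with arrays scaled to their median (adjusted p = 0.0694 and 0.0589). The same held with no filter on dim probes (0.116 and 0.0634) and on slide 1 alone (0.111 and 0.104). Both calls were also lost with knockout 2 and control 3 left out together (0.179 and 0.158), where 320 of 13492 genes were called. With arrays grouped by source name (0.999 for both), 0 of the 13492 genes were called.

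Abcc8 encodes SUR1, the regulatory subunit of an ATP-sensitive potassium channel, which is not itself an exporter and is known from pancreatic beta cells and enteroendocrine cells. Its level was -0.94, -0.84 and -0.72 on knockout arrays 1 to 3, against -1.60, -1.98 and -2.11 on control arrays 1 to 3. All knockout values were higher than all control values. Another Abcc8 probe was well above background on 1 array only, a knockout array, and was not kept. The log2 fold change was 1.06 ± 0.18 (95% interval 0.62 to 1.5, adjusted p = 0.0152), a 2.09-fold rise, and it was 0.90 on slide 1 and 1.39 on slide 2. The call was lost without control 2 (adjusted p = 0.0636), control 3 (0.0566) or knockout 2 (0.0516). Enteroendocrine markers were measured for 7 of 7 genes and averaged 0.39, -0.0037 and 0.63 log2 units from the control mean on knockouts 1 to 3, against 0.09, -0.04 and -0.05 on controls 1 to 3. Pcsk1, a prohormone convertase, and Sct, the hormone secretin, rose among them, by 2.66 and 1.0 on the log2 scale. Of the 7 markers 4 had negative fold changes and the median was -0.06. Chga and Neurod1 had all knockout values below all control values, with differences of -0.79 and -0.26, and neither was called (adjusted p = 0.0744 and 0.302). Their part in the rise of Abcc8 was not tested.

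Abcc5 encodes an exporter of organic anions known for carrying cyclic nucleotides. Its level was -0.85, -0.42 and -0.79 on knockout arrays 1 to 3, against -2.17, -1.53 and -1.45 on control arrays 1 to 3. Here too the lowest knockout value was above the highest control value. The log2 fold change was 1.03 ± 0.24 (95% interval 0.45 to 1.61, adjusted p = 0.037), a 2.04-fold rise, with 1.21 on slide 1 and 0.66 on slide 2. A dimmer probe of Abcc5 differed by 0.44, and with the mean of both probes the fold change was 0.73 and not called (adjusted p = 0.0579). The call was also lost without any one of knockout 2, knockout 3 and controls 1 to 3, with adjusted p between 0.0667 and 0.114.

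**Figure D2:**
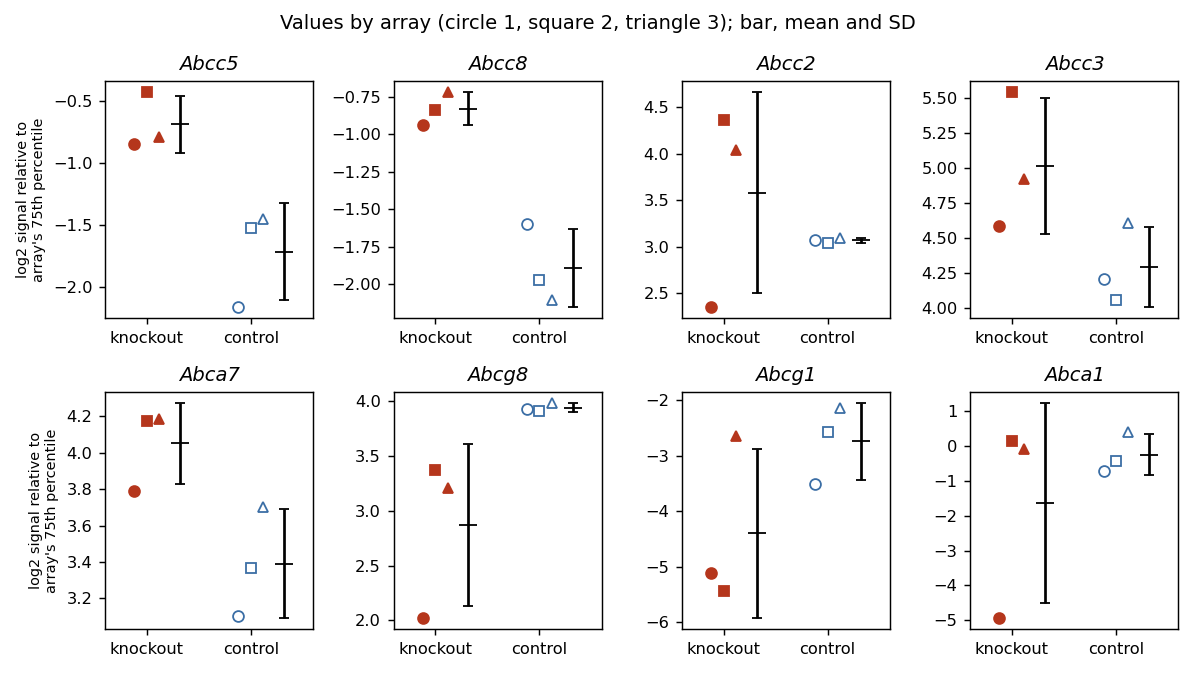
Each panel shows the log2 signal of one ABC gene, relative to the 75th percentile of the array, on the 3 knockout arrays at the left and the 3 control arrays at the right, with the bar giving mean and SD. Knockout and control values are apart for Abcc5, Abcc8, Abca7 and Abcg8, and knockout 1 stands far below the other arrays for Abca1.

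Abcc2 and Abcc3 export conjugated bile acids, bilirubin and drug glucuronides, Abcc2 across the apical membrane and Abcc3 across the basolateral one. Abcc2 had levels of 2.34, 4.36 and 4.04 on knockout arrays 1 to 3, against 3.07, 3.04 and 3.09 on control arrays 1 to 3. The controls lay within 0.06 of each other, while knockout 1 lay below them and the other knockouts above. Its log2 fold change of 0.52 ± 0.50 (adjusted p = 0.492) did not pass the test, whereas with knockout 1 left out the value was 1.13 and was called (adjusted p = 0.00914). Abcc3 had levels of 4.59, 5.55 and 4.92 on knockout arrays 1 to 3, against 4.21, 4.05 and 4.61 on control arrays 1 to 3. Knockout 1 and control 3 overlapped by a small margin, and the fold change was 0.73 ± 0.28 (adjusted p = 0.127). A dimmer Abcc3 probe differed by 1.12, with values of -0.23, 0.61 and 0.15 on knockout arrays 1 to 3, against -1.15, -1.16 and -0.50 on control arrays 1 to 3, so that on this probe the groups did not overlap.

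Abcc6, a membrane protein needed for ATP release and linked to ectopic mineralisation, had levels of 0.63, 1.21 and 1.92 on knockout arrays 1 to 3, against 0.75, 0.88 and 0.57 on control arrays 1 to 3. Knockouts 2 and 3 were above the controls and knockout 1 was among them. The fold change of Abcc6 was 0.52 ± 0.32 (adjusted p = 0.296), with 0.10 on slide 1 and 1.34 on slide 2. Abcc10, another multidrug exporter, had levels of 1.77, 2.41 and 2.49 on knockout arrays 1 to 3, against 1.63, 1.93 and 1.83 on control arrays 1 to 3 (fold change 0.43 ± 0.23, adjusted p = 0.233). Again only knockout 1 lay within the control range.

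Abcc1, the founding multidrug resistance protein, had levels of -1.53, -1.86 and -1.95 on knockout arrays 1 to 3, against -1.69, -2.22 and -1.45 on control arrays 1 to 3. The groups overlapped throughout, and the interval of its fold change ran from -0.57 to 0.58 (adjusted p = 0.985). Abcc4, an exporter of cyclic nucleotides and prostaglandins, had levels of -2.39, -3.67 and -4.12 on knockout arrays 1 to 3, against -3.22, -3.55 and -3.85 on control arrays 1 to 3. It was well above background on 2 knockout arrays and 1 control array and did not differ beyond its spread (0.15 ± 0.44, adjusted p = 0.835).

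**Figure D3:**
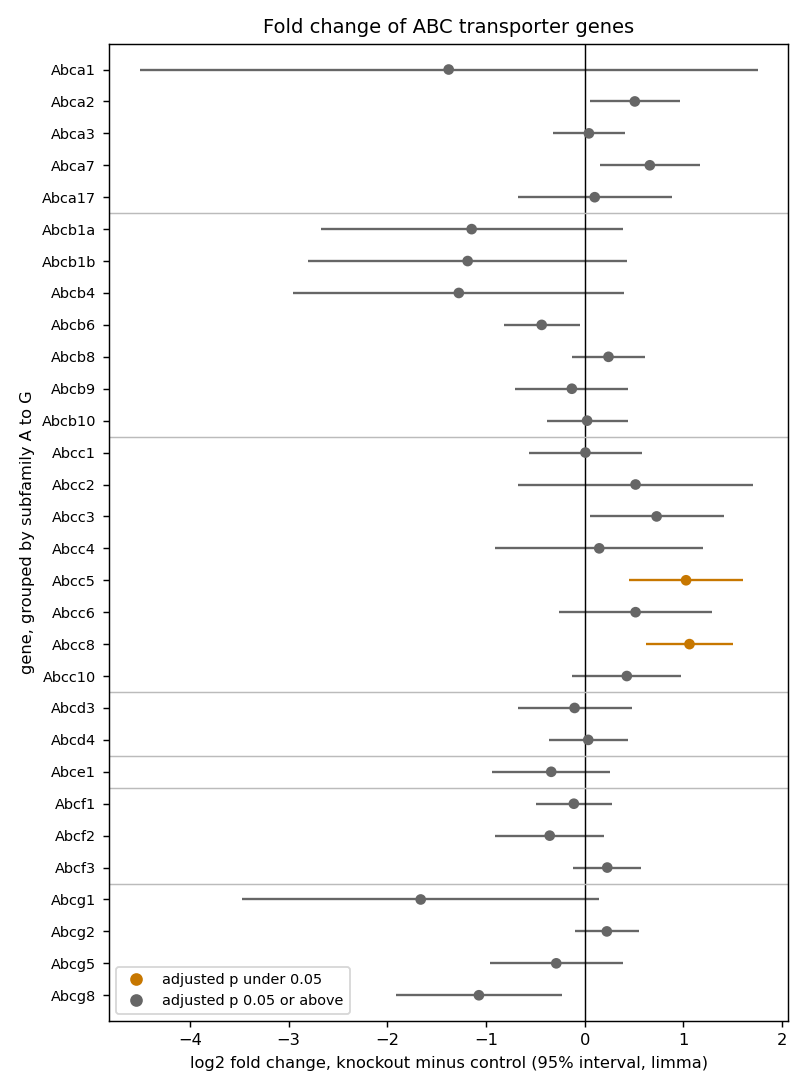
Points give the log2 fold change, knockout minus control, of measured ABC genes with its 95% interval from limma, grouped by subfamily. Abcc5 and Abcc8 are coloured as called, and the points of all 8 ABCC genes lie above 0. The intervals of Abca1, Abcb1a, Abcb1b, Abcb4 and Abcg1 are the widest.

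Of 10 ABCB genes 8 were measured. None was called, 3 of 8 fold changes were positive and the median was -0.28. The efflux pumps and the mitochondrial carriers of this subfamily are given separately.

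Abcb1a and Abcb1b encode the mouse P-glycoproteins, which pump drugs out of the apical membrane, and Abcb4, a close relative, moves phosphatidylcholine to the outer leaflet. Abcb1a had levels of 0.98, 2.91 and 3.60 on knockout arrays 1 to 3, against 3.69, 3.23 and 4.0 on control arrays 1 to 3. Abcb1b had levels of -1.60, 0.47 and 1.14 on knockout arrays 1 to 3, against 1.28, 0.71 and 1.58 on control arrays 1 to 3. Abcb4 had levels of -0.11, 1.84 and 2.78 on knockout arrays 1 to 3, against 2.85, 2.26 and 3.22 on control arrays 1 to 3. In all 3 genes knockout 1 was lowest, knockout 2 next, and knockout 3 lay within the control range.

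Knockout 1 was 2.66, 2.79 and 2.89 log2 units below the control mean for Abcb1a, Abcb1b and Abcb4, and knockout 2 was 0.73, 0.72 and 0.94 below it. The log2 fold changes were -1.15 ± 0.64 for Abcb1a (adjusted p = 0.247), -1.19 ± 0.68 for Abcb1b (0.254) and -1.28 ± 0.70 for Abcb4 (0.240). None passed the test, and without knockout 1 they were -0.39, -0.39 and -0.47. On slide 1 they were -1.52, -1.56 and -1.69, and on slide 2 -0.40, -0.44 and -0.44.

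From low to high, the 6 arrays stood in the same order for all 3 genes: knockout 1, knockout 2, control 2, knockout 3, control 1, control 3. Of the 13492 genes tested, 46 (0.341%) had that order, these 3 included. The neighbouring gene Rundc3b, whose RefSeq span overlaps that of Abcb1a, had it too, with levels of -1.53, -1.25 and 0.04 on knockout arrays 1 to 3, against 0.09, -0.18 and 0.16 on control arrays 1 to 3. The other measured neighbours, Dbf4, Slc25a40, Crot, Tmem243 and Dmtf1, did not. Crot, a peroxisomal carnitine acyltransferase gene next to Abcb4, differed by 0.12 ± 0.25 (adjusted p = 0.77), while Tmem243 rose by 0.96 (adjusted p = 0.038) and Dmtf1 by 0.70 (adjusted p = 0.042). Of the promoter windows printed above, those of Abcb1b and Abcb4 both held CCAAT and GGGCGG, and that of Abcb1a held neither. Another probe of Abcb1b and another of Abcb4 were well above background on 0 of the 6 arrays, so they give no check of these values. Whether the probes of the 3 transporters, which target related sequences, cross-hybridise was not tested, nor whether overlapping transcripts share signal.

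**Figure D4:**
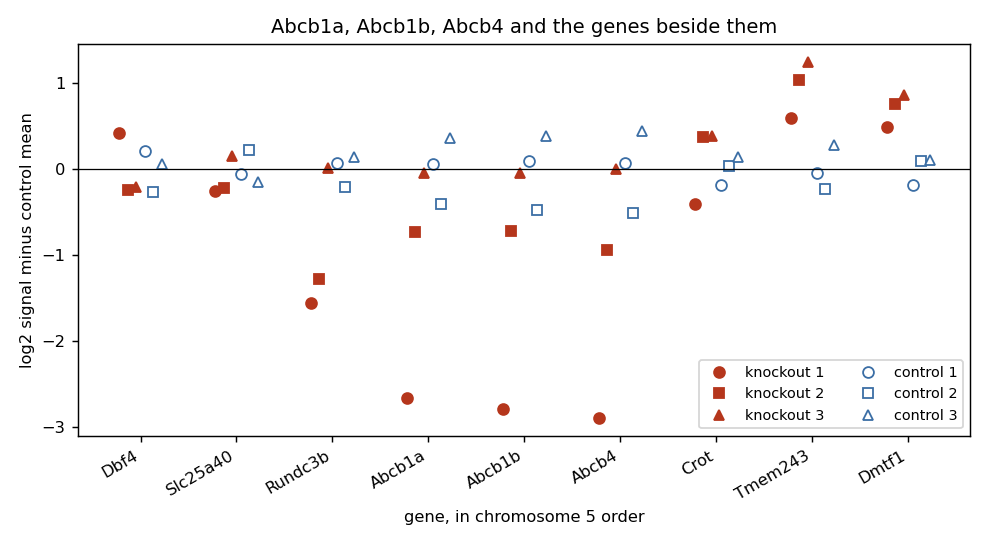
Log2 signal minus the control mean is plotted for 9 genes in their order along chromosome 5, with knockout arrays as filled marks and control arrays as open ones. Rundc3b, Abcb1a, Abcb1b and Abcb4 are lowest on knockout 1 and next lowest on knockout 2, and Tmem243 and Dmtf1 are above the controls on all 3 knockout arrays.

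Among the intracellular ABCB proteins, Abcb6, a porphyrin transporter, was lower on every knockout array, with levels of 0.82, 0.72 and 0.51 on knockout arrays 1 to 3, against 1.26, 1.05 and 1.04 on control arrays 1 to 3. The groups did not overlap, and the fold change of Abcb6 was -0.44 ± 0.16 (adjusted p = 0.112), which did not pass the test. Abcb8, a mitochondrial transporter linked to iron handling, differed by 0.24 ± 0.15 (adjusted p = 0.303), with 0.18 on a dimmer probe and -0.0073 when arrays were scaled to their median. Abcb10, a mitochondrial transporter of the haem pathway, and Abcb9, a lysosomal peptide transporter, differed by 0.02 ± 0.17 and -0.13 ± 0.24 (adjusted p = 0.932 and 0.727).

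The ABCG subfamily had 4 of 6 genes measured, of which 1 had a positive fold change, with a median of -0.68. With arrays scaled to their median 0 of 4 were positive and the median was -0.93. The median was nearer 0 with knockout 1 left out (-0.33), with normexp (-0.32), over the 3 genes well above background on all 6 arrays (-0.29), with array weights (-0.25, 2 of 4 positive) and with arrays grouped by source name (-0.19, 2 of 4 positive). Abcg8 and Abcg5 encode the sterol exporter of the enterocyte apical membrane, each contributing one subunit. Abcg8 had levels of 2.02, 3.37 and 3.21 on knockout arrays 1 to 3, against 3.92, 3.91 and 3.99 on control arrays 1 to 3. The controls lay within 0.08 of each other and every knockout array was below them. Its log2 fold change was -1.07 ± 0.35 (95% interval -1.92 to -0.23, adjusted p = 0.0871) and was not called, with -1.22 on slide 1 and -0.78 on slide 2. Without knockout 1 it was -0.65 and called (adjusted p = 0.0267), and with arrays scaled to their median it was -1.32 and called (adjusted p = 0.0279).

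Abcg5 had levels of 5.64, 6.70 and 6.31 on knockout arrays 1 to 3, against 6.36, 6.69 and 6.47 on control arrays 1 to 3, and only knockouts 1 and 3 were below the control range. Its fold change was -0.29 ± 0.28 (95% interval -0.96 to 0.39, adjusted p = 0.498). The intervals of Abcg5 and Abcg8, which start from either end of the 109-base stretch printed above, overlap, and the difference between both fold changes was not tested. The measured genes beside the pair were Lrpprc, Ppm1b and Slc3a1, and their fold changes were -0.38, 0.53 and 0.05, none of them called.

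Abcg1, a cholesterol exporter abundant in macrophages, was close to background. It was well above background on 1 knockout array and 2 control arrays, with levels of -5.12, -5.43 and -2.65 on knockout arrays 1 to 3, against -3.50, -2.57 and -2.13 on control arrays 1 to 3. Knockouts 1 and 2 were low and knockout 3 lay among the controls. The fold change of -1.66 ± 0.76 (adjusted p = 0.172) was not called. It was called on slide 1 alone (adjusted p = 0.0473) and with knockout 3 left out (adjusted p = 0.017), but neither knockout array in those fits was well above background, so only bounds can be given. Abcg1 was at least 1.44-fold lower on slide 1, where 1 of 2 controls detected it, and at least 1.78-fold lower with knockout 3 left out, where 2 of 3 controls did. Macrophage and myeloid markers were measured for 8 of 11 genes and averaged 0.55, 0.30 and -0.01 log2 units from the control mean on knockouts 1 to 3, against -0.03, 0.07 and -0.04 on controls 1 to 3. Cd68 and Mrc1 rose, by 0.87 and 1.28 on the log2 scale, as did Aif1. Of the 3 control arrays, 1 detected Mrc1 and none detected Aif1. Lyz2, which Paneth cells of the mouse gut can also express, fell by 3.43. Adgre1, C1qa and C1qc were not well above background on any array, and the part of these cells was not tested.

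Abcg2, the breast cancer resistance protein, had levels of 5.79, 5.86 and 5.90 on knockout arrays 1 to 3, against 5.64, 5.63 and 5.61 on control arrays 1 to 3. Its groups did not overlap, yet the difference was small, at 0.22 ± 0.14 (adjusted p = 0.280), and it was -0.024 with arrays scaled to their median.

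The ABCA proteins are large lipid transporters, and 5 of 16 genes were measured, 4 of them with positive fold changes and a median of 0.10, but 2 of 5 with a median of -0.15 when arrays were scaled to their median. Abca1 loads cholesterol and phospholipid onto apolipoprotein A-I. It had levels of -4.94, 0.16 and -0.08 on knockout arrays 1 to 3, against -0.72, -0.42 and 0.41 on control arrays 1 to 3. Knockout 1 stood apart at a level that was not well above background, and both other knockouts lay within the control range. Abca1 thus differed by -1.38 ± 1.31 (95% interval -4.51 to 1.75, adjusted p = 0.484), and by 0.28 once knockout 1 was left out (adjusted p = 0.566).

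Abca7, a phospholipid transporter related to Abca1, had levels of 3.79, 4.17 and 4.19 on knockout arrays 1 to 3, against 3.1, 3.37 and 3.70 on control arrays 1 to 3. Every knockout array was above every control array, and a dimmer probe gave a like difference of 0.61. The fold change of Abca7 was 0.66 ± 0.21 (95% interval 0.15 to 1.17, adjusted p = 0.0829). Abca2, a lysosomal lipid transporter known from the nervous system, had levels of -1.14, -1.07 and -0.88 on knockout arrays 1 to 3, against -1.75, -1.65 and -1.22 on control arrays 1 to 3. Its groups did not overlap either, and its fold change was 0.51 ± 0.19 (adjusted p = 0.119). Abca3, which fills the lamellar bodies of lung alveolar cells with phospholipid, differed by 0.04 ± 0.15 (95% interval -0.32 to 0.41, adjusted p = 0.862). Abca17, well above background on 2 knockout arrays and 1 control array, differed by 0.10 ± 0.33 (adjusted p = 0.846).

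Among the ABCD genes, Abcd3, the abundant peroxisomal membrane protein PMP70, had levels of 6.09, 6.74 and 6.71 on knockout arrays 1 to 3, against 6.67, 6.32 and 6.85 on control arrays 1 to 3. Only knockout 1 was below the controls, and the fold change was -0.10 ± 0.24 (95% interval -0.68 to 0.48, adjusted p = 0.789). Abcd4, which serves cobalamin release from lysosomes, differed by 0.04 ± 0.17 (adjusted p = 0.896).

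Abce1 splits ribosomes after termination. Its levels were 3.03, 2.28 and 2.15 on knockout arrays 1 to 3, against 2.92, 2.75 and 2.80 on control arrays 1 to 3. Knockout 1 was the highest array and knockouts 2 and 3 the lowest. Abce1 differed by -0.34 ± 0.25 (adjusted p = 0.371), and by -0.61, which was called, once knockout 1 was left out. Abcf2, of the same cytosolic kind, was also lowest on knockouts 2 and 3, with levels of 1.58, 1.07 and 0.82 on knockout arrays 1 to 3, against 1.56, 1.31 and 1.66 on control arrays 1 to 3 (fold change -0.35 ± 0.23, adjusted p = 0.312). Abcf1, a partner of the initiation factor eIF2, had 5 probes with differences between -0.12 and 0.06, and its brightest gave 4.16, 4.05 and 4.23 on knockout arrays 1 to 3, against 4.28, 4.07 and 4.43 on control arrays 1 to 3 (fold change -0.11 ± 0.16, adjusted p = 0.658). Abcf3 differed by 0.23 ± 0.14 (adjusted p = 0.295) with groups that did not overlap, and by -0.020 with arrays scaled to their median. All 3 ABCF genes were measured and 1 of 3 was positive, with a median of -0.11.

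The 18 ABC genes not kept were Abca4, Abca5, Abca6, Abca8a, Abca8b, Abca9, Abca12, Abca13, Abca14, Abca15, Abca16, Abcb5, Abcb11, Abcc9, Abcc12, Abcd2, Abcg3 and Abcg4. Among them are the bile salt export pump of the liver (Abcb11), the retinal transporter of photoreceptors (Abca4) and the lipid transporter of the epidermis (Abca12). Abca13, Abcc12 and Abcg4 were well above background on 1 array each, a knockout array in every case, and the other 15 on none, so no fold change is given for any of them. Just inside the detection limit were Abca17, Abcc4 and Abcg1, each detected on 3 arrays.

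**Figure D5:**
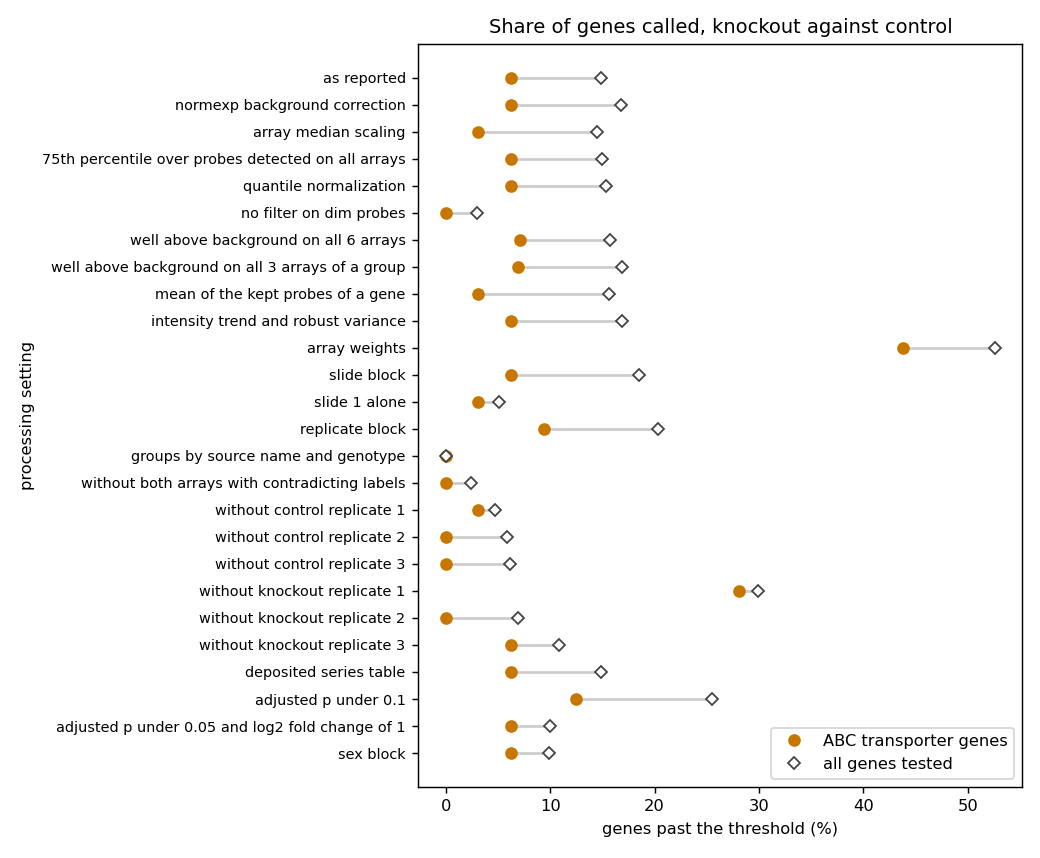
Each line is one processing setting. Filled points give the percentage of measured ABC genes called in either direction, knockout against control, and open diamonds that of all genes tested. As reported, 2 of 32 ABC genes and 14.9% of all genes are called, and the shares are highest with array weights and without knockout 1.

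Genes that work with ABC transporters were read from 8 lists. Of all genes tested, 7.28% were called higher and 7.63% lower, and the counts called in each of these lists are to be read against those shares. Among 3 genes that encode ABC proteins under other symbols, Tap1, a subunit of the peptide transporter of antigen presentation, rose by 0.91 ± 0.19 on the log2 scale (adjusted p = 0.0246). Its levels were 5.05, 5.12 and 5.38 on knockout arrays 1 to 3, against 4.22, 4.07 and 4.53 on control arrays 1 to 3. Its partner Tap2 differed by 0.53 (adjusted p = 0.0809) and the chloride channel Cftr by 0.08 (adjusted p = 0.78).

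Of 16 genes of sterol sensing and cholesterol or phospholipid handling, 0 rose and 1 fell, with a median of -0.14. The gene that fell was Srebf1, the lipogenic transcription factor, by 0.91 on the log2 scale (adjusted p = 0.0465). Nr1h2, which encodes the sterol receptor LXR-beta, and Scarb1, a lipoprotein receptor, differed by 0.50 and 1.62 and were not called (adjusted p = 0.0647 and 0.0652). Of 9 bile acid genes 8 were measured, with 1 higher and 1 lower and a median of -0.71. Slc51b, a subunit of the basolateral bile acid exporter, rose by 1.83 on the log2 scale (adjusted p = 0.0205). Its partner subunit Slc51a differed by -0.77, with all knockout values below all control values, and was not called (adjusted p = 0.0992). Fabp6, the ileal bile acid binding protein, was undetected on the 3 knockout arrays (not well above background) and detected on the 3 control arrays, and was at least 3.29-fold lower in knockouts (adjusted p = 0.00933), a bound that sets each knockout array at its lowest detected signal or the probe's own, whichever is higher.

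Of 18 xenobiotic sensors and their target enzymes 17 were measured, with 0 higher, 1 lower and a median of 0.21. Ahr, the aryl hydrocarbon receptor, fell by 1.04 on the log2 scale (adjusted p = 0.0443). Cyp3a11, a drug-metabolising cytochrome P450 chosen after its values were seen, had levels of -1.33, 3.65 and 3.88 on knockout arrays 1 to 3, against 4.71, 4.84 and 4.97 on control arrays 1 to 3. Knockout 1 stood far below the rest here as it did for Abcb1a, and the fold change of Cyp3a11 was -2.77 ± 1.32 (adjusted p = 0.186). The 17 genes of the list averaged -0.76, 0.88 and 0.21 from the control mean on knockouts 1 to 3, against 0.04, -0.30 and 0.27 on controls 1 to 3.

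Of 10 apical scaffold genes, 1 rose and 1 fell, with a background of 7.28% of all genes higher and 7.63% lower. Rab11a, a GTPase of apical recycling, rose by 1.0 on the log2 scale (adjusted p = 0.0207). Pdzk1, a scaffold that binds transporter tails at the brush border, fell by 1.49 (adjusted p = 0.0194). The peroxisomal and lysosomal partners of the ABCD proteins held 1 higher gene of 10, Pex3 (0.60, adjusted p = 0.0483), and the mitochondrial partners 1 of 11, the iron carrier Slc25a28 (0.85, adjusted p = 0.0215). Among 12 ribosome partners of Abce1 and the ABCF proteins 1 rose, Ltn1, a ubiquitin ligase of stalled ribosomes (0.85, adjusted p = 0.0175). In these last 3 lists 0 genes fell, and the medians were 0.00, -0.09 and 0.07.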

How the data were processed

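Each sample was hybridised to one Agilent one-colour Cy3 array. The deposited scanner files give the processed intensity of each spot, background-subtracted and not scaled between arrays, from Agilent Feature Extraction (12.0.3.1 per the file headers, 11.5.1.1 per the submitters' processing notes). Flags for other properties (well above background, outlier, saturated) are the authors' values, per the file headers. The deposited table of the whole series, in log2 units, differed from the values used here, centred per gene, by a median of 0.00111; it served as an alternative.

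Control and outlier spots were left out, spots of a probe averaged, and log2 intensity taken minus the 75th percentile of the array. That percentile stood at a signal of 292, 206 and 205 on knockouts 1 to 3, against 295, 279 and 290 on controls 1 to 3. The number of arrays limits the precision. Of 56605 probes, 33767 were named by unversioned accession through a RefSeq gene table (GRCm38.p6), and 26746 were well above background on 3 or more arrays. Array coordinates are on another build and are not printed. The fit was limma 3.58.1 (R 4.3.3) with 1 term, group, and was tested on simulated data. ABC genes were named whatever their values; some are counted but not reported here by name. Up to 3 genes with the smallest p represent each related list, and Cyp3a11, Slc51a, the neighbouring genes and the marker genes named were added. The members, lists and tests were chosen with earlier results of these data known. Alternatives covered background, scaling, filter, probe choice, variance model, blocks, labels and single arrays left out. Sex as a block was added after seeing the data.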

Additional observations from a re-analysis of the deposited data

How the results depend on the processing

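Of 729 fold changes of single ABC genes recomputed under 21 to 23 alternatives a gene, 639 kept direction and side of the threshold, 48 turned direction, 23 became called and 19 lost a call; 14 of 32 genes never turned. Array median scaling lowers every gene by the same 0.25, so 9 of the 48 turns are one shared shift, and 39 came from other alternatives. The cause of a change was not tested, except that leaving out arrays leaves fewer samples.

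The counts of ABC genes higher and lower and of all genes called (2, 0 and 2011 as reported) were 0, 1 and 1951 with array median scaling, under which 28.8% of all calls were higher, against 48.8% as reported. They were 0, 0 and 697 of 23456 genes without a filter, 9, 5 and 7097 with array weights (6.35 for knockout 2, 0.28 for knockout 1), 0, 1 and 689 on slide 1 alone, 0, 0 and 0 with groups by source name and genotype, and 0, 0 and 320 with knockout 2 and control 3 left out together. With the mean of probes 1 gene was higher. At an adjusted p under 0.1 they were 3, 1 and 3445, and with a sex block 2, 0 and 1339. Leaving out one array gave 0 to 7 higher, 0 to 2 lower and 638 to 4033 in all. Both Abcc5 and Abcc8 stayed called with normexp, quantile normalization, the deposited table, slide or sex as a block, and stricter filters.

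Same-numbered samples deviated together with correlations of 0.246, 0.08 and 0.352. Since 1 of them is not over 0.1, the numbers were not taken to pair the samples. Knockout 3 and control 3 also share slide 2. With a replicate block 3 ABC genes were higher (Abca7 joined, adjusted p = 0.0432), 0 lower and 2733 genes called in all; each knockout array correlated best with the control of its own number.

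Log2 fold changes that turned were, with array weights, Abca1 0.30, Abcb9 0.12, Abcc1 -0.016, Abcc4 -0.17, Abcd3 0.13, Abcd4 -0.087 and Abcg5 0.13. With array median scaling they were Abca17 -0.15, Abca3 -0.21, Abcb10 -0.22, Abcb8 -0.0073, Abcc1 -0.24, Abcc4 -0.10, Abcd4 -0.21, Abcf3 -0.020 and Abcg2 -0.024, with quantile normalization Abca17 -0.14, Abcc1 -0.099 and Abcc4 -0.10, and with groups by source name Abca17 -0.018, Abca3 -0.045, Abcc2 -0.33, Abce1 0.0053, Abcf1 0.14, Abcf2 0.039 and Abcg1 0.54. Normexp gave Abcb10 -0.025, the percentile over probes detected on all arrays Abcc1 -0.014, the sex block Abcc1 -0.036 and Abcc4 -0.0013, and leaving out both contradicting arrays Abca3 -0.0017 and Abcf1 0.024. Leaving out one array at a time gave ranges that cross 0 for Abca1 (-2.27 to 0.28), Abca17 (-0.20 to 0.35), Abca3 (-0.034 to 0.091), Abcb10 (-0.10 to 0.10), Abcb9 (-0.25 to 0.096), Abcc1 (-0.21 to 0.18), Abcc4 (-0.35 to 0.51), Abcd3 (-0.25 to 0.11) and Abcd4 (-0.052 to 0.13).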
